A study of Mus musculus with 16 samples.

Results

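The enzymes described here make ceramide, the lipid at the centre of sphingolipid metabolism, and pass it on to its main products. The members are 10 genes given by name, Sptlc1, Sptlc2, Cers2, Cers4, Cers5, Cers6, Degs1, Ugcg, Sphk1 and Sgpl1, and all 10 were found by symbol among the 56941 genes of the count table. The rule uses symbols and no measured value, and all 10 passed the filter on low counts that left 16306 genes to test.

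RNA was sequenced in bulk from primary murine gingival fibroblasts (mGF), which are cultured cells of the gum's connective tissue, obtained from WT C57Bl6 mice aged 3 to 6 months and used at passages 2 to 8. There were 4 groups of 4 libraries, each after 24 h of treatment, and the comparisons ask how a saturated fatty acid and an inflammatory cytokine act on these cells alone and together. The groups were BSA (control), the albumin vehicle of the fatty acid labelled at 200 μM, 1 ng/mL IL-1β, 200 μM palmitate bound to BSA, and palmitate + IL-1β at both of these doses. The paper describes BSA or palmitate as given either with IL-1β or without it, while the labels of the IL-1β libraries name no vehicle. It is not stated whether the 4 replicates of a group came from separate mice, separate cultures or 1 culture, so the p-values measure only the spread between these libraries, which may be technical. A stranded kit for total RNA is named in the labels, whereas the methods of the paper describe cDNA primed with oligo(dT), so it is not settled which RNAs without a poly(A) tail were captured.

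Ceramide is built on the endoplasmic reticulum. Serine palmitoyltransferase joins palmitoyl-CoA, the activated form of palmitate, to serine, ceramide synthases then attach a further acyl chain, and a desaturase completes the molecule. Ceramide can be turned into sphingomyelin or glycosphingolipids, or cut to sphingosine, which sphingosine kinases phosphorylate to the signalling lipid sphingosine 1-phosphate.

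Each library held between 21234789 and 92752515 counts in genes, with medians of 29022309 in BSA (control), 24980916.5 with IL-1β, 25954856 with palmitate and 31264413 with both agents. Palmitate replicate 10 was the deepest at 92752515 counts. Levels are CPM, counts scaled to a common library size after adjusting the libraries to each other, and 3 counts, taken as the floor of detection, correspond to 0.0331 to 0.146 CPM depending on the library. The floor accounts for counting error alone, because duplicates from PCR carry no mark in these libraries. The members together took between 0.0766% and 0.0897% of the counts of a library.

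Fibroblast markers were abundant. Here a marker is called above the floor if its count exceeded 3 in any library. All 10 of those listed were above the floor, with Fn1, the gene of fibronectin, the most abundant at 15652 CPM in BSA (control) and 20873 CPM in IL-1β, although Lum, the gene of lumican, reached at most 2.26 CPM. Their summed level was 48261 ± 2238 CPM in BSA (control), 54321 ± 2501 with IL-1β, 50160.0 ± 2716 with palmitate and 50834 ± 2982 with both agents (mean ± SD, n = 4). Of 8 leukocyte markers 5 were above the floor, and their sum lay at 3.63 CPM in BSA (control), 3.54 with IL-1β, 2.97 with palmitate and 3.49 with both agents. Their most abundant gene was Csf1r, and the defining T cell gene Cd3e had at most 2 counts in a library. All 5 endothelial markers were above the floor by this rule, although Vwf had 2 counts, and Pecam1 and Kdr 3 each, in their lowest libraries. These markers summed to between 2.03 and 2.50 CPM over the groups, with Cdh5 the most abundant.

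Among epithelial markers the sum was higher in the groups with palmitate. The epithelial list summed to 11.1 ± 0.615 CPM in BSA (control), 12.1 ± 0.766 with IL-1β, 29.7 ± 2.21 with palmitate and 24.9 ± 1.26 with both agents. Of its 6 genes 5 were above the floor, but nearly all of the sum was the tight junction gene Cldn1, at 10.7 CPM in BSA (control) and 29.4 in palmitate, while the epithelial keratin genes Krt5 and Krt14 and the adhesion gene Epcam had at most 5 counts in any library and Krt1 at most 1. All 5 genes of the muscle and pericyte list were above the floor by the same rule, although Myod1 had only 0 to 4 counts in a library. The list summed to 82.9 ± 5.29 CPM in BSA (control), 98.9 ± 9.78 with IL-1β, 86.0 ± 6.05 with palmitate and 88.6 ± 6.67 with both agents. Most of that was Cspg4, a gene of pericytes that other mesenchymal cells also express, at 56.1 CPM in BSA (control) and 73.7 CPM in IL-1β. The part of these markers in the results on the members was not tested. In bulk RNA, fewer cells of a type and less RNA per cell cannot be told apart.

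Levels of different genes can be compared per kilobase (kb) of the canonical transcript. The lengths come from GENCODE vM39 while the paper names vM33 for the counts, so all values per kb, with the ratios and shares made from them, combine 2 releases. On that scale the members of BSA (control) ran from Degs1 at 59.6 ± 2.69 CPM per kb through Sgpl1 at 51.9, Ugcg at 42.3, Cers2 at 30.2, Cers6 at 15.2, Cers5 at 14.1, Sptlc1 at 13.6 and Sptlc2 at 7.26 to Sphk1 at 0.837 and Cers4 at 0.828. The desaturase, the glucosylceramide synthase and the lyase that degrades sphingosine 1-phosphate thus stood highest, and the kinase Sphk1 and the synthase Cers4 lowest. Neighbours whose libraries overlapped were Cers6 with Cers5, Cers5 with Sptlc1, and Sphk1 with Cers4. With lengths of all exons joined, the 3 highest were still Sgpl1, Degs1 and Ugcg, at 32.7, 32.5 and 31.1 CPM per kb, so the order among these 3 depends on the length used, as does that of Sphk1 and Cers4.

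With palmitate against BSA (control), 6 of the 10 members changed, 4 higher and 2 lower, at an adjusted p under 0.05 by edgeR quasi-likelihood with Benjamini-Hochberg adjustment over all genes tested. The higher ones were Sptlc2, Ugcg, Sphk1 and Degs1, and the lower ones were the ceramide synthases Cers4 and Cers5. Over all 16306 genes the same rule called 37.3%, with 19.8% higher and 17.5% lower, so palmitate changed a large share of the transcriptome. The median log2 difference was 0.04 over the members and -0.0030 over all genes. Each of the 6 called members had its palmitate libraries on 1 side of all BSA (control) libraries, and the 4 others overlapped. How many of all genes separated in this way was not counted, so this is a description and not a trait of the members. Without palmitate replicate 12 the count was 3 members, beside 34.1% of all genes. Upper-quartile normalization turned the split to 3 higher and 4 lower. Over all genes it moved the higher part of those called from 53.1% to 37.1%.

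With IL-1β against BSA (control), 4 members changed, with Sptlc2 and Degs1 the 2 higher and Ugcg and Cers4 the 2 lower. All genes gave 15.1% called, of which 10.1% were higher and 4.97% lower. The median log2 difference was 0.01 over the members and -0.0049 over all genes. Cers5 did not pass, yet its IL-1β libraries lay below all of BSA (control). With upper-quartile normalization in edgeR, 3 members were called, 0 higher and 3 lower. Over all genes that setting moved the higher part of those called from 67.1% to 43.5%.

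Palmitate + IL-1β against BSA (control) changed 5 members, with Sptlc2 the 1 higher and Sptlc1, Cers4, Cers5 and Ugcg the 4 lower, where 47.3% of all genes were called, 24.8% higher and 22.5% lower. The median log2 difference was -0.06 over the members and 0.0017 over all genes. The share of mitochondrially encoded genes in a library ran from 12.2% to 13.4% in BSA (control), 11.4% to 14.0% with IL-1β, 11.9% to 13.2% with palmitate and 10.7% to 11.48% with both agents, so the share with both agents lay below BSA (control) without overlap. With these genes left out of the edgeR fit, 6 members were called, 1 higher and 5 lower. The factors that scale the libraries to each other (TMM) ran from 1.01133 to 1.04 in BSA (control) and from 0.972 to 1.00 with both agents, also without overlap. They ran from 0.970 to 1.00667 with palmitate and from 0.991 to 1.01121 with IL-1β, so each treated group lay below BSA (control). With upper-quartile normalization 6 members were called for both agents against BSA (control), 1 higher and 5 lower. Over all genes that setting moved the higher part of those called from 52.4% to 38.7%. These 3 comparisons share the BSA (control) libraries, so their values stand side by side and are not independent of each other.

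Adding palmitate to IL-1β changed 4 members, with Sptlc2 and Ugcg the 2 higher and Cers5 and Cers6 the 2 lower, against 35% of all genes called, 18.9% higher and 16.1% lower. The median log2 difference was -0.05 over the members and 0.0074 over all genes. Adding IL-1β to palmitate changed 2 members, Ugcg and Cers5, with 0 higher and 2 lower by edgeR (0 higher and 3 lower by DESeq2), against 9.81% of all genes, 5.71% higher and 4.1% lower. At an unadjusted p under 0.05 in edgeR that comparison had 3 members, beside 3635 of all 16306 genes. Its median log2 difference was -0.06 over the members and 0.0068 over all genes. Without palmitate replicate 9, palmitate replicate 11 or palmitate + IL-1β replicate 14 the count was 1 member. In these fits 7.84%, 6.99% and 8.05% of all genes were called, in that order.

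The interaction asks whether the effect of palmitate differed in the presence of IL-1β. It had 0 members called by edgeR, 0 higher and 0 lower, and 0 by DESeq2. Over all genes edgeR called 1.99%, 0.159% higher and 1.83% lower. At an unadjusted p under 0.05 in edgeR there were 3 of the 10 members, beside 1669 of all 16306 genes. The median log2 difference was -0.06 over the members and -0.0018 over all genes.

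Across the 5 comparisons between groups, 8 of the 10 members were called at least once. Of all 16306 genes the same rule called 57.1% at least once, 28.7% only as higher, 26.2% only as lower and 2.13% in both directions. Of the 8, 3 members were called only as higher (Sptlc2, Degs1 and Sphk1), 4 only as lower (Sptlc1, Cers4, Cers5 and Cers6) and 1, Ugcg, in both directions. Cers2 and Sgpl1 were called in 0 of the comparisons by edgeR and in 0 by DESeq2, and at an unadjusted p under 0.05 in edgeR 1 passed once, Sgpl1 with IL-1β. With the main settings no member differed by more than 1.5-fold in any of them. Of all 16306 genes, 1876 were called and beyond 1.5-fold with palmitate, 387 with IL-1β and 2647 with both agents against BSA (control). The log2 difference furthest from 0 among the members was that of Cers4, -0.55 in palmitate + IL-1β against BSA (control). That value of Cers4 reached -0.63 over the alternatives and -0.61 with 1 library left out, which are both beyond 1.5-fold.

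**Figure D1:**
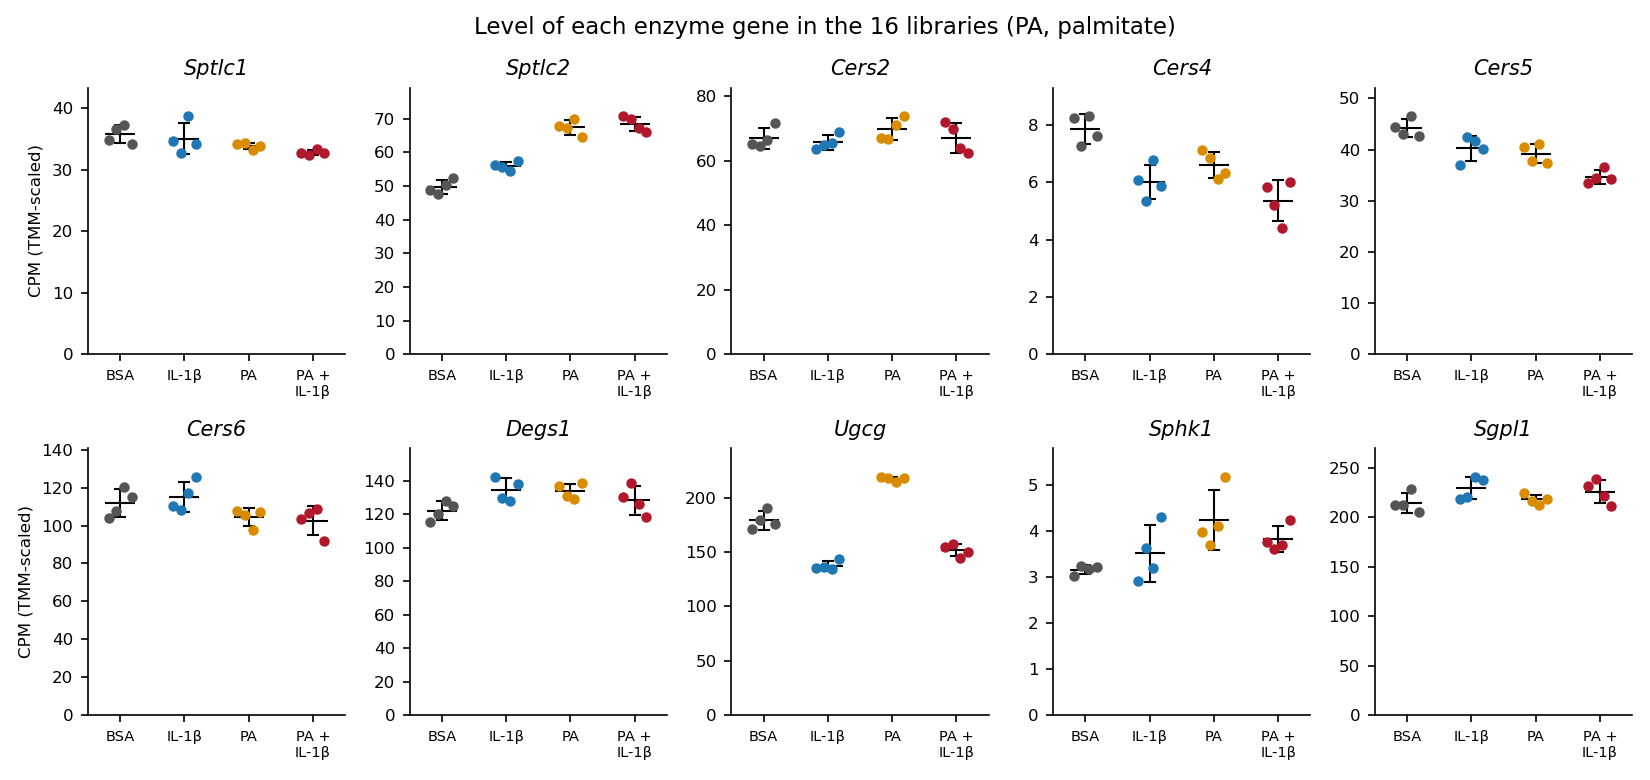
Level of each member in CPM (y axis, a separate scale for each gene) in the 16 libraries, by group (x axis), with dots for libraries and lines for mean ± SD (n = 4). Sptlc2 is higher in all 8 libraries with palmitate than in the 8 without, and Ugcg is lowest in IL-1β and highest in palmitate.

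Serine palmitoyltransferase catalyses the committed step of the pathway, and its core pairs the SPTLC1 subunit with SPTLC2. Sptlc2 was measured at 48.7, 47.5, 50.2 and 52.4 CPM in BSA (control) and at 56.2, 55.7, 54.4 and 57.3 CPM in IL-1β. In palmitate it was at 67.8, 67.1, 69.9 and 64.6 CPM, and in palmitate + IL-1β at 70.7, 69.8, 67.1 and 66.2 CPM. The 4 IL-1β libraries lay above the 4 of BSA (control), the palmitate libraries lay above both, and the libraries with both agents overlapped those with palmitate alone. The level rose by 0.44 ± 0.04 on the log2 scale with palmitate (± SE throughout for log2 differences, edgeR adjusted p = 8.39e-10) and by 0.46 ± 0.04 with both agents (edgeR adjusted p = 1.86e-10). Palmitate added to IL-1β gave a log2 difference of 0.29 ± 0.04 (edgeR adjusted p = 2.48e-06), and IL-1β added to palmitate gave 0.02, with a 95% interval of -0.06 to 0.11. With IL-1β alone the difference was 0.17 ± 0.04 (edgeR adjusted p = 0.00727). That last call was lost with upper-quartile normalization, at an adjusted p of 0.0514, the highest of a range that began at 0.00359 over 6 alternatives.

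Sptlc1, which encodes the partner subunit, was lower in group mean wherever Sptlc2 was higher. It stood at 35.8 ± 1.45 CPM in BSA (control), 35.1 ± 2.58 with IL-1β, 33.9 ± 0.480 with palmitate and 32.8 ± 0.400 with both agents (mean ± SD, n = 4). All 4 libraries with both agents, at 32.5 to 33.4 CPM, lay below the 34.3 to 37.3 CPM of BSA (control), and the difference of -0.13 ± 0.05 on the log2 scale passed the test (edgeR adjusted p = 0.0437). It passed with each of 6 alternative settings but in only 6 of 16 fits that left out 1 library, where the adjusted p ran from 0.0180 to 0.125. The fits in which it was lost were those without BSA (control) replicate 2 or 3 or without any 1 library of palmitate or of palmitate + IL-1β. Against BSA (control), palmitate gave -0.08 (edgeR adjusted p = 0.257), which passed with upper-quartile normalization, at the low end of 0.0197 to 0.369 over the alternatives, and IL-1β gave -0.03 (edgeR adjusted p = 0.799). Palmitate added to IL-1β gave -0.10 (edgeR adjusted p = 0.138), which also passed with that normalization, at the low end of 0.0412 to 0.185.

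The ratio of the subunits per kb of transcript put these values together. Sptlc2 to Sptlc1 was 0.536 ± 0.0387 in BSA (control), 0.617 ± 0.0522 with IL-1β, 0.766 ± 0.0313 with palmitate and 0.804 ± 0.0312 with both agents. The lowest ratio with palmitate, 0.737, was above the highest without it, 0.656. Which subunit stands higher depends on the length used. With lengths of all exons joined, Sptlc2 lay below Sptlc1 in BSA (control), at 4.23 and 5.48 CPM per kb, and with IL-1β, at 4.76 and 5.38, but above it with palmitate, at 5.74 and 5.196, and with both agents, at 5.83 and 5.03. As a description over the 16 libraries, which fall into the 4 groups, Pearson's r between log2 CPM of both genes was -0.679.

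Ceramide synthases differ in the length of the acyl chain they attach. CERS2 prefers very long chains, CERS5 and CERS6 prefer the chain length of palmitate, and CERS4 chains of intermediate length. Per kb of transcript, Cers2 made up 50.1% ± 1.45 of the summed level of these 4 genes in BSA (control), Cers6 25.1% ± 0.912, Cers5 23.4% ± 1.07 and Cers4 1.37% ± 0.0911 (mean ± SD, n = 4). These shares depend on the length used, and with lengths of all exons joined Cers2, Cers6 and Cers5 lay closer together in BSA (control), at 13.0, 11.9 and 9.14 CPM per kb. The share of Cers5 was 21.9% with IL-1β, 21.3% with palmitate and 19.9% with both agents, while that of Cers2 was 50.4%, 53.4% and 54.2%. These are shares of transcript levels, and enzyme activity was not measured.

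Cers5 was counted at 44.5, 43.0, 46.5 and 42.7 CPM in BSA (control), and at 36.9, 42.5, 41.6 and 40.0 CPM in IL-1β. With palmitate it stood at 40.5, 37.8, 41.1 and 37.4 CPM, and with both agents at 33.4, 34.4, 36.6 and 34.3 CPM. All libraries of the 3 treated groups were below BSA (control), palmitate and IL-1β overlapped each other, and the libraries with both agents were the lowest. On the log2 scale Cers5 fell by 0.18 ± 0.05 with palmitate (edgeR adjusted p = 0.00695) and by 0.35 ± 0.05 with both agents (edgeR adjusted p = 1.12e-06). Palmitate added to IL-1β gave -0.22 ± 0.05 (edgeR adjusted p = 0.00133), and IL-1β added to palmitate gave -0.18 ± 0.05 (edgeR adjusted p = 0.0266). IL-1β alone gave -0.13 ± 0.05 and did not pass (edgeR adjusted p = 0.0818), although it did with upper-quartile normalization and with a minimum of 10 counts in every library, where over 6 alternatives the adjusted p ran from 0.0139 to 0.114. The call for IL-1β added to palmitate was lost without palmitate replicates 9 or 11 or palmitate + IL-1β replicates 13, 14 or 16, each left out alone, with an adjusted p of up to 0.109. A test of the interaction gave -0.04 ± 0.07 on the log2 scale (edgeR adjusted p = 0.914).

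Per kb of transcript Cers4 was 1 of the 2 members with the lowest level, and its mean was lower in every treated group than in BSA (control). It was measured at 8.26, 7.27, 8.32 and 7.62 CPM in BSA (control), and at 6.10, 5.35, 6.77 and 5.88 CPM in IL-1β. In palmitate it was at 7.14, 6.85, 6.13 and 6.33 CPM, and in palmitate + IL-1β at 5.84, 5.23, 4.41 and 6.00 CPM. The 4 BSA (control) libraries were the highest of the 16, and the libraries with both agents lay below all those with palmitate alone but overlapped those with IL-1β. Cers4 fell by 0.38 ± 0.10 on the log2 scale with IL-1β (edgeR adjusted p = 0.00951) and by 0.55 ± 0.10 with both agents (edgeR adjusted p = 3.58e-05). With palmitate alone the difference was -0.25 ± 0.10, close to the threshold (edgeR adjusted p = 0.0490). That call was lost without a filter on low counts, at an adjusted p of 0.0673 in a range that began at 0.0104 over 6 alternatives. It was also lost in fits without BSA (control) replicate 1, 3 or 4, IL-1β replicate 5, or palmitate replicate 10, 11 or 12, with an adjusted p of up to 0.130. IL-1β added to palmitate gave -0.30 ± 0.10 and did not pass (edgeR adjusted p = 0.0556), but it did in 4 of 6 alternatives, from 0.0401 to 0.0533.

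Cers6 and Cers2, the more abundant synthases, varied less between groups. Cers6 averaged 111.8 ± 7.36 CPM in BSA (control), 115 ± 7.95 with IL-1β, 104 ± 4.71 with palmitate and 102.6 ± 7.53 with both agents. Its 1 call was palmitate added to IL-1β, at -0.17 ± 0.06 on the log2 scale (edgeR adjusted p = 0.0194), and there the libraries overlapped, since 1 group ran from 91.7 to 108.6 CPM and the other from 108.1 to 126 CPM. The call was lost without IL-1β replicate 8 or without palmitate + IL-1β replicate 16, with an adjusted p of up to 0.0971. Both agents against BSA (control) gave -0.12 ± 0.06 (edgeR adjusted p = 0.0693), which passed in 4 of 6 alternatives, over a range of 0.00207 to 0.0718, and palmitate alone gave -0.10 (edgeR adjusted p = 0.175), which passed with upper-quartile normalization, at the low end of 0.0119 to 0.202. Cers2 averaged 67.0, 65.6, 69.7 and 67.0 CPM in the same order of groups, with libraries between 62.4 and 73.8 CPM. Its difference between both agents and BSA (control) was 0.00 on the log2 scale with a 95% interval of -0.10 to 0.10.

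Degs1 encodes the dihydroceramide desaturase, which introduces the double bond that turns dihydroceramide into ceramide. It stood at 116, 120.1, 128.1 and 125 CPM in BSA (control), 142, 129.95, 128.2 and 138 with IL-1β, 137, 131, 129.1 and 138 with palmitate, and 130.4, 139, 126 and 118 with both agents. The libraries with 1 agent lay above BSA (control), by a narrow margin in each case, and those with both agents overlapped it. The log2 difference was 0.13 ± 0.05 with palmitate (edgeR adjusted p = 0.0299), 0.14 ± 0.05 with IL-1β (edgeR adjusted p = 0.0450) and 0.07 ± 0.05 with both (edgeR adjusted p = 0.221). The first of these calls passed in 1 of 6 alternatives, the fit of the 8 libraries compared, in a range of 0.0239 to 0.304, and the second in 0 of 6, from 0.0506 to 0.176. The palmitate call was also lost without BSA (control) replicate 1 or 2 or palmitate replicate 9 or 12, with an adjusted p of up to 0.166. The IL-1β call was lost without BSA (control) replicate 1, 2 or 4, IL-1β replicate 5 or 8, palmitate + IL-1β replicate 13 or any 1 palmitate library, with up to 0.198. The interaction was -0.20 ± 0.07 on the log2 scale, which did not pass (edgeR adjusted p = 0.178; edgeR unadjusted p = 0.00618).

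Ugcg encodes glucosylceramide synthase, which adds glucose to ceramide and so opens the route to glycosphingolipids. It was measured at 170.8, 179.7, 190.4 and 176 CPM in BSA (control), and at 135, 136, 134 and 144 CPM in IL-1β. In palmitate it was at 219, 218, 215 and 218 CPM, and in palmitate + IL-1β at 155, 158, 145 and 150.2 CPM. The 4 groups did not overlap, with IL-1β lowest, then palmitate + IL-1β, BSA (control) and palmitate. Ugcg rose by 0.28 ± 0.04 on the log2 scale with palmitate (edgeR adjusted p = 1.67e-06) and fell by 0.38 ± 0.04 with IL-1β (edgeR adjusted p = 3.43e-08). With both agents it was below BSA (control), at -0.24 ± 0.04 (edgeR adjusted p = 1.77e-05), and further below palmitate alone, at -0.52 ± 0.04 (edgeR adjusted p = 9.84e-11). It was above IL-1β alone, at 0.15 ± 0.04 (edgeR adjusted p = 0.00656), a call that was lost with no filter on low counts, at 0.0501 in a range that began at 0.00588. The other 4 of these calls passed in all 6 alternatives and in all 16 fits that left out 1 library. The interaction was -0.13 ± 0.06 on the log2 scale, which did not pass (edgeR adjusted p = 0.400; edgeR unadjusted p = 0.0298).

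Sphk1 and Sgpl1 stand at the far end of the pathway. Sphk1 encodes a kinase that makes sphingosine 1-phosphate, and Sgpl1 the lyase that cleaves it irreversibly. Sphk1 was measured at 3.02, 3.23, 3.17 and 3.22 CPM in BSA (control), 2.91, 3.63, 3.20 and 4.31 in IL-1β, 3.98, 3.69, 4.11 and 5.18 in palmitate, and 3.77, 3.61, 3.70 and 4.24 in palmitate + IL-1β. All 8 libraries with palmitate lay above BSA (control), and palmitate replicate 12 was the highest of the 16. Sphk1 rose by 0.40 ± 0.13 on the log2 scale with palmitate (edgeR adjusted p = 0.0139), a call that was lost without that library, at 0.0764. Both agents gave 0.28 ± 0.13 and IL-1β gave 0.15 ± 0.14, and neither passed (edgeR adjusted p = 0.0846 and 0.526). Sphk1 had between 71 and 335 counts in a library, so its interval is the widest among the members for palmitate against BSA (control), from 0.14 to 0.67.

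Sgpl1 averaged 214 ± 9.87 CPM in BSA (control), 229.6 ± 11.3 with IL-1β, 218 ± 5.02 with palmitate and 226 ± 11.7 with both agents, over libraries from 205 to 241 CPM. It overlapped between the groups in all 5 comparisons. For palmitate against BSA (control) its log2 difference was 0.02 with a 95% interval of -0.07 to 0.12, and for IL-1β it was 0.10 (edgeR adjusted p = 0.150). Per kb of transcript, the ratio of Sphk1 to Sgpl1 was 0.0161 ± 0.000925 in BSA (control), 0.0167 ± 0.00265 with IL-1β, 0.0213 ± 0.00324 with palmitate and 0.0186 ± 0.00230 with both agents, so transcripts of the lyase far outnumbered those of this kinase in each group.

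**Figure D2:**
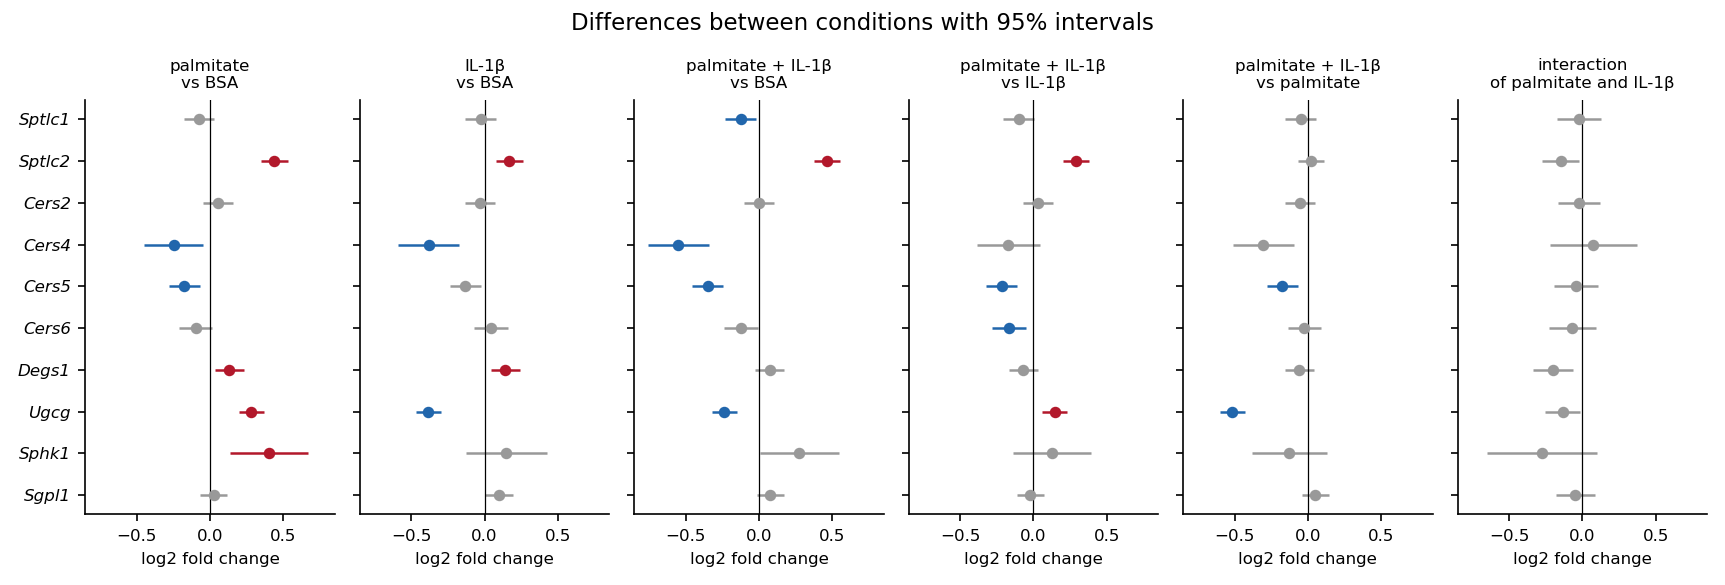
Log2 difference of each member (y axis) with its 95% interval in the 5 comparisons between groups and the interaction (panels), where red marks higher, blue lower and grey not called at an adjusted p under 0.05. Sptlc2 is to the right of 0 wherever palmitate was added, and Ugcg is to the left of 0 wherever IL-1β was added.

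The other genes of sphingolipid metabolism were described with 7 lists that hold 68 genes, of which 57 were tested. Palmitate against BSA (control) changed 28 of the 57, 15 higher and 13 lower, with a median log2 difference of 0.03 beside -0.0030 over all genes. IL-1β changed 12, 8 higher and 4 lower, with a median of 0.0093 beside -0.0049, a count of 7 without BSA (control) replicate 1. Both agents against BSA (control) changed 33, 18 higher and 15 lower, with a median of -0.03 beside 0.0017. Palmitate added to IL-1β changed 28, 15 higher and 13 lower, at a median of -0.0075 beside 0.0074, and IL-1β added to palmitate changed 9, 5 higher and 4 lower, at a median of -0.03 beside 0.0068. The interaction called 3, all 3 lower, at a median of -0.03 beside -0.0018, and 5 without BSA (control) replicate 3. In each comparison these lists are read beside the shares of all genes given above. With upper-quartile normalization in edgeR the split by direction turned to 12 higher and 17 lower for palmitate, to 16 higher and 24 lower for both agents against BSA (control), to 13 higher and 17 lower for palmitate added to IL-1β and to 4 higher and 5 lower for IL-1β added to palmitate, while IL-1β alone gave 5 higher and 4 lower.

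Genes at or under 3 counts in every library were Sptlc3 and Sptssb, a further subunit and a regulator of serine palmitoyltransferase, Ugt8a, which makes galactosylceramide, the sialyltransferase St8sia1, the ceramidase Acer1, and the sphingosine 1-phosphate receptors S1pr4 and S1pr5. These 7 genes were not detectable above the floor at this depth. The other 4 untested genes of the lists were Cers3, Degs2, Sgpp2 and Mfsd2b. Below, the 3 genes of each list with the smallest p over the 4 groups are named.

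The list of de novo synthesis, which holds the remaining enzymes and regulators of this route, had 6 of 10 genes tested. Palmitate called 1 of them, Ormdl3, a gene of the ORMDL proteins that restrain serine palmitoyltransferase, which fell by 0.15 ± 0.05 on the log2 scale (edgeR adjusted p = 0.0103), with all palmitate libraries below BSA (control). IL-1β called 0 by edgeR, 0 by DESeq2 and 0 at an unadjusted p under 0.05 in edgeR, which 4456 of all 16306 genes passed. Both agents against BSA (control) called 1, Kdsr, the reductase that acts after serine palmitoyltransferase, at 0.14 ± 0.05 (edgeR adjusted p = 0.0216). The libraries of Kdsr overlapped and the call passed in 0 of 6 alternatives, from 0.0503 to 0.295. Cers1, at up to 1.10 CPM in group mean, shares all of its canonical transcript with its overlapping neighbour Gdf1, and it passed once, at -0.84 ± 0.29 for palmitate added to IL-1β (edgeR adjusted p = 0.0223). That call was lost without IL-1β replicate 8 or palmitate + IL-1β replicate 15 or 16, with an adjusted p of up to 0.0844.

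The list of ceramide transfer and sphingomyelin metabolism had 5 of 8 genes called with palmitate, 2 higher and 3 lower, 3 with IL-1β, 2 higher and 1 lower, and 6 with both agents, 3 higher and 3 lower. Smpd3 encodes a neutral sphingomyelinase, an enzyme that releases ceramide from sphingomyelin. Smpd3 averaged 1.79 ± 0.342 CPM in BSA (control), 2.14 ± 0.241 with IL-1β, 5.44 ± 0.631 with palmitate and 4.41 ± 0.441 with both agents. It rose by 1.60 ± 0.14 on the log2 scale with palmitate, with all 4 libraries above BSA (control) (edgeR adjusted p = 5.29e-11). Smpd1, of the acid sphingomyelinase, moved the other way, at -0.20 with palmitate, -0.23 with IL-1β and -0.40 with both agents (edgeR adjusted p = 0.00872, 0.0102 and 2.53e-06). The first of these calls was lost without BSA (control) replicate 1, at 0.0506, and the second without that library or IL-1β replicate 8, at up to 0.0691. Sgms2, a sphingomyelin synthase, was at 0.33 with palmitate and 0.32 with both (edgeR adjusted p = 6.78e-05 and 6.47e-05). With IL-1β it was at 0.19 (edgeR adjusted p = 0.0428), a call that passed in 2 of 6 alternatives and in 9 of 16 fits that left out 1 library.

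Glycosphingolipid synthesis, the route that Ugcg opens, held the largest log2 difference from BSA (control) among the genes named here from the 7 pathway lists. Of its 9 genes 7 were tested, and palmitate changed 3, 2 higher and 1 lower, IL-1β 2, 1 higher and 1 lower, and both agents 5, 2 higher and 3 lower. A4galt, which makes the globoside Gb3 from lactosylceramide, averaged 12.5 ± 0.983 CPM in BSA (control), 23.9 ± 1.74 with IL-1β, 51.9 ± 1.99 with palmitate and 61.6 ± 4.12 with both agents. It rose by 2.06 ± 0.06 on the log2 scale with palmitate, 0.94 ± 0.07 with IL-1β and 2.31 ± 0.06 with both, without overlap with BSA (control) (edgeR adjusted p = 1.89e-22, 2.00e-12 and 5.94e-24). The palmitate effect was smaller beside IL-1β, with an interaction of -0.69 ± 0.09 (edgeR adjusted p = 1.79e-06). B4galt5, which makes lactosylceramide from the product of UGCG, stood at 76.2 ± 6.90, 80.7 ± 1.91, 149.9 ± 3.29 and 126.0 ± 8.16 CPM in the same order, a rise of 0.98 ± 0.05 with palmitate (edgeR adjusted p = 2.22e-16) and an interaction of -0.34 ± 0.07 (edgeR adjusted p = 0.00571). St3gal5, which makes the ganglioside GM3 from the same lactosylceramide, fell by 0.55 ± 0.07 with palmitate and by 0.74 ± 0.08 with both agents (edgeR adjusted p = 3.78e-07 and 1.13e-09), with all treated libraries of these groups below BSA (control).

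In the list of glycosphingolipid breakdown, palmitate changed 4 of 10 genes, 1 higher and 3 lower, IL-1β 1, which was higher, and both agents 5, 1 higher and 4 lower. The higher gene was Gla, of the alpha-galactosidase that degrades Gb3, at 0.39 ± 0.07 on the log2 scale with palmitate and 0.56 ± 0.07 with both agents (edgeR adjusted p = 4.95e-05 and 8.64e-08). It was also the 1 gene called with IL-1β, at 0.22 ± 0.07 (edgeR adjusted p = 0.0427), where libraries overlapped and 3 of 6 alternatives lost the call, at up to 0.112. Without BSA (control) replicate 1, 2 or 4, IL-1β replicate 6 or 7, palmitate replicate 9, 10 or 11, or palmitate + IL-1β replicate 13 that call was lost too, at up to 0.204. Arsa, of arylsulfatase A, fell by 0.29 with palmitate and by 0.35 with both (edgeR adjusted p = 0.000299 and 1.36e-05). Gba2, of a glucosylceramidase that works outside the lysosome, fell by 0.28 and by 0.45 (edgeR adjusted p = 0.0245 and 0.000449), with libraries that overlapped in palmitate. The palmitate call of Gba2 was lost without BSA (control) replicate 2 or palmitate replicate 9 or 10, with an adjusted p of up to 0.126.

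Of 6 tested genes of ceramidases and ceramide kinase, palmitate changed 2, 1 higher and 1 lower, and both agents 4, 2 higher and 2 lower. IL-1β changed 0 by edgeR and 0 by DESeq2. At an unadjusted p under 0.05 in edgeR 1 passed with IL-1β, beside 4456 of all 16306 genes. The acid ceramidase gene Asah1 averaged 195 ± 8.23 CPM in BSA (control) and 177 ± 7.29 in palmitate, at -0.14 ± 0.04 on the log2 scale (edgeR adjusted p = 0.0108), a call lost without palmitate replicate 10, at 0.0578. The neutral ceramidase gene Asah2 averaged 50.03 ± 3.89 CPM in BSA (control) and 56.2 ± 2.92 in palmitate, at 0.17 ± 0.05 (edgeR adjusted p = 0.0142). Its libraries overlapped, and the call was lost with upper-quartile normalization, at 0.139, and without BSA (control) replicate 1 or 2 or palmitate replicate 9, at up to 0.0837. Acer2, an alkaline ceramidase gene, lay near the floor at 0.167 CPM in BSA (control) and 0.468 in palmitate + IL-1β, with a log2 difference of 1.46 ± 0.39 (edgeR adjusted p = 0.00261).

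Among 10 tested genes of sphingosine 1-phosphate handling and receptors, palmitate changed 7, 4 higher and 3 lower, IL-1β 4, 2 higher and 2 lower, and both agents 6, 4 higher and 2 lower. The receptor gene S1pr3 averaged 18.8 ± 1.19 CPM in BSA (control), 35.7 ± 1.11 with IL-1β, 66.8 ± 0.995 with palmitate and 69.8 ± 2.38 with both agents. It rose by 1.83 ± 0.05 on the log2 scale with palmitate and by 0.92 ± 0.05 with IL-1β, in all 4 libraries of each (edgeR adjusted p = 5.96e-24 and 4.25e-15), and its interaction was -0.86 ± 0.07 (edgeR adjusted p = 8.77e-11). Plpp3 and Plpp1 encode lipid phosphate phosphatases of the cell surface, which can remove the phosphate from sphingosine 1-phosphate among other lipids, and they moved in opposite directions. Plpp3 averaged 55.1 ± 0.492 CPM in BSA (control), 74.4 ± 2.45 with IL-1β, 119 ± 3.36 with palmitate and 149 ± 3.32 with both agents, a log2 difference of 1.44 ± 0.04 with both agents (edgeR adjusted p = 1.20e-23). Plpp1 averaged 462 ± 21.9, 424 ± 6.30, 307 ± 7.78 and 283 ± 4.17 CPM, a log2 difference of -0.71 ± 0.04 with both agents (edgeR adjusted p = 1.00e-15).

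The last list holds genes that supply acyl-CoA and serine, the substrates of serine palmitoyltransferase. Palmitate changed 6 of 10, 5 higher and 1 lower, IL-1β 2, both of them higher, and both agents 6, 5 higher and 1 lower. The acyl-CoA synthetase gene Acsl4 was at 0.35 ± 0.04 on the log2 scale with palmitate, 0.29 ± 0.04 with IL-1β and 0.48 ± 0.04 with both (edgeR adjusted p = 3.14e-08, 5.53e-06 and 2.79e-11). Acsl5, another of the same family, rose by 0.38 ± 0.06 with palmitate and was at -0.02 ± 0.06 with IL-1β (edgeR adjusted p = 1.15e-06 and 0.879). Slc1a4, a carrier of neutral amino acids that include serine, averaged 91.9 ± 4.33 CPM in BSA (control), 106.6 ± 6.44 with IL-1β, 99.7 ± 2.64 with palmitate and 127 ± 8.26 with both agents, a log2 difference of 0.47 ± 0.05 with both (edgeR adjusted p = 1.71e-09).

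**Figure D3:**
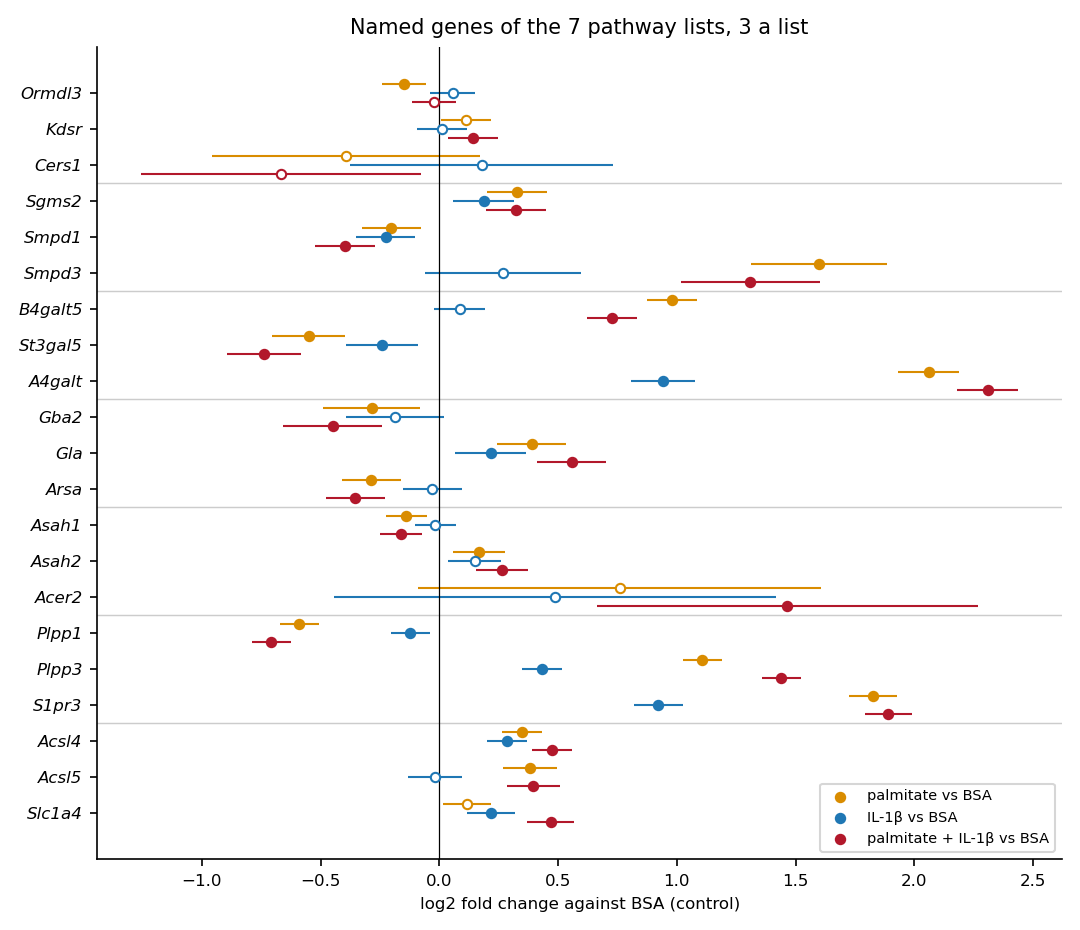
Log2 difference from BSA (control) (x axis) of the 21 named pathway genes (y axis, by list) with palmitate, IL-1β and both agents, where filled points passed an adjusted p under 0.05 and open points did not. A4galt and S1pr3 lie furthest to the right, and St3gal5 and Plpp1 furthest to the left among the filled points.

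The genes most like each member over the 16 libraries were sought among 9057 genes with an average of at least 3 on the log2 CPM scale. These correlations describe libraries that share 4 groups, so they mostly compare group levels. Sptlc2 was closest to Saa3, an acute-phase serum amyloid gene, and to the ubiquitin ligase gene Znrf1, each with r = 0.984. Saa3 averaged 0.0835 CPM in BSA (control), 0.721 with IL-1β, 23.2 with palmitate and 22.9 with both agents, and Znrf1 35.7, 46.8, 72.6 and 75.2 CPM, so the likeness is in the pattern over the groups and not in the size of the differences. The mean of Saa3 in BSA (control) was under the floor of each library of that group, so its r rests in part on values not detectable above the floor. Ugcg was closest to the zinc transporter gene Slc39a10, with r = 0.987, at 56.4 CPM in BSA (control), 44.6 with IL-1β, 67.2 with palmitate and 48.3 with both agents, and then to the actin-binding gene Lasp1, with r = 0.945.

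Cers5 was closest to St3gal2, a sialyltransferase gene, with r = 0.957, and to the metalloproteinase gene Mmp17, with r = 0.947. For Cers4 the closest were Msrb3 and Abat, with r = 0.914 and 0.905, for Cers6 Heatr5b and Tulp4, with 0.931 and 0.927, and for Sgpl1 Prdm4 and Tnpo2, with 0.900 and 0.874. The likeness was lower for Degs1, with Cnot9 and Ubqln1 at 0.882 and 0.834, for Sphk1, with Ttll4 and Ctso at 0.851 and 0.809, for Sptlc1, with B4galt1 and Mfn2 at 0.839 and 0.834, and for Cers2, with Me2 and Zdhhc13 at 0.757 and 0.751. Among the 45 pairs of members, r over the 16 libraries ran from -0.774 for Sptlc2 with Cers5 to 0.668 for Cers4 with Cers5.

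The 10 members lie on 10 different chromosomes of GRCm39, from Degs1 on chr1:182103335-182110389 to Cers5 on chr15:99632477-99670783, so none are neighbours. None shared a stretch of at least 100 bases at 95% identity with another gene and none overlapped an exon of another gene on its strand.

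The 250 bases before the start of the canonical transcript of each member (GENCODE, GRCm39) were searched on both strands for 5 short motifs. Of all 21757 promoters of protein-coding genes of this length, GGGCGG (the GC box) was in 36.3%, CCAAT (the CCAAT box) in 36.5%, TATAAA (the TATA box) in 11.9%, GGANTTTCC (a form of the NF-κB site) in 1.18% and TGATGNAA (a composite element bound by ATF4 with C/EBP) in 3.39%. Among the members, Sptlc1, Sptlc2, Cers2, Cers4 and Ugcg held CCAAT, and Sptlc1, Cers2, Cers4, Degs1 and Sgpl1 held GGGCGG, with 3 matches in Cers4 and 4 in Sgpl1. The windows of Cers5, Cers6 and Sphk1 held none of the 5 motifs, and the other 3 motifs had 0 matches in any member. The promoters of Sptlc2 and Ugcg are shown as examples, chosen after the values of the members were seen. They are written 5′ to 3′ on the strand of the gene, and capitals mark CCAAT or its reverse complement ATTGG. Sptlc2 (chr12:87435268-87435517, - strand) has its matches 105 and 21 bases before the start, and Ugcg (chr4:59188799-59189048, + strand) has 1 match at 121 bases. Such a match describes the letters only.
Sptlc2: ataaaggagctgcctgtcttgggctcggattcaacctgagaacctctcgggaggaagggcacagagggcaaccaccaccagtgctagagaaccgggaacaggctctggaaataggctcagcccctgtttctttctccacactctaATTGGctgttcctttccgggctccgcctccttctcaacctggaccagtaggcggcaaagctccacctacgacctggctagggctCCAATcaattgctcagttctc
Ugcg: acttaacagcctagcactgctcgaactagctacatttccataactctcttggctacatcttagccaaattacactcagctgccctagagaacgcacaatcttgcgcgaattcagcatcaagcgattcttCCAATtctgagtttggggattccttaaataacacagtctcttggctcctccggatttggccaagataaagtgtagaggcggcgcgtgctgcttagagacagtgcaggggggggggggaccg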

How the data were processed

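Reads were trimmed by the authors in Trimmomatic 0.39, mapped to GRCm39 by STAR 2.7.10a and assigned to genes by strand in HTSeq 2.0.9. The deposited values are raw counts per gene, neither filtered nor normalized, in 16 libraries whose groups come from the labels. The 5 summary lines that name no gene, 18.3% to 21.4% of a library, were left out.

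Differences were tested with edgeR 4.0.16 (R 4.3.3, limma 3.58.1) on the genes kept by filterByExpr (minimum count 10, minimum total 15). Library sizes were recomputed over the genes tested and scaled by TMM. All 16 libraries entered 1 quasi-likelihood fit (glmQLFit, robust) with a mean per group and no covariate, and p-values were adjusted over all 16306 genes by Benjamini-Hochberg. The comparisons were each treated group against BSA (control), both agents against each single agent, and the interaction. Intervals are at 95%. The common biological coefficient of variation was 6.08%.

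Named were all 10 members, of each pathway list the 3 genes with the smallest p over the 4 groups and any gene at 3 counts or fewer in every library, and for each member the 2 tested genes with the highest Pearson r to its log2 CPM (prior count 2). The members and lists were chosen with earlier results of these data known.

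Alternatives were DESeq2 1.42.0, upper-quartile normalization, no filter, a minimum of 10 counts in each library, removal of mitochondrially encoded genes, fits of the 8 libraries compared, and fits without each library in turn. The steps were tested on simulated data. Shared sequence was searched with blastn 2.17.0+. Measurements of the study other than RNA-seq were not used.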

Additional observations from a re-analysis of the deposited data

Results flagged for a closer look

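Single libraries stood apart from the other 3 of their group by a gap beyond Dixon's 95% critical share of the group's range. For 4 of the 124 gene and group pairs checked this was so, and chance gives about 1 in 20. B4galt5 was at 77.9 CPM in IL-1β replicate 5, where the others were at 81.5 to 81.9. St3gal5 was at 11.2 CPM in palmitate replicate 12, against 12.6 to 12.9, and in that library Gla was at 23.7 CPM, against 25.5 to 25.7. Asah2 was at 55.8 CPM in BSA (control) replicate 3, against 47.4 to 48.6. None of the 10 members had such a library.

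Of 16 checks on library measures 3 stood apart in the same way. The total was 31314557 counts in IL-1β replicate 7, against 24376996 to 25347673, and 92752515 in palmitate replicate 10, against 21234789 to 27076430. Reads in no gene were 15.8% of IL-1β replicate 8, against 13.3% to 13.7%.

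For 3 of the pathway genes, palmitate acted differently beside IL-1β than alone, by the interaction in edgeR. The log2 difference with IL-1β minus that without it was -0.34 for B4galt5, -0.69 for A4galt and -0.86 for S1pr3.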

How the results depend on the processing

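The total counts of members and of pathway genes called, but not their split by direction, stayed within 1.5 times their values under DESeq2, upper-quartile normalization, both other filters, without mitochondrially encoded genes and in fits of the 8 libraries compared. Without 1 library at a time, the members called ranged from 3 to 6 for palmitate, 3 to 4 for IL-1β and 4 to 6 for both agents against BSA (control), 3 to 4 for both against IL-1β, 1 to 3 for both against palmitate and 0 to 0 for the interaction. The pathway genes ranged from 24 to 29, 7 to 13, 29 to 35, 21 to 30, 6 to 10 and 3 to 5 in that order. Of 350 single-gene results of members under the other alternatives, 323 lay on the side of the threshold first given, 14 no longer passed, 13 newly passed and 0 turned from a called direction. The 323 include 14 uncalled values that changed sign, to at most 0.08 from 0 on the log2 scale. Of 960 with 1 library left out, these were 914, 39, 7 and 0, with 14 such changes of sign, to at most 0.05. Among pathway genes, single-gene results cover only those named for the smallest p in their list. For these genes they were 692, 28, 7 and 0 of 727, with 7 changes of sign to at most 0.04, and 1910, 91, 15 and 0 of 2016, with 46 to at most 0.33. Upper-quartile normalization moved the share of called genes that were higher, over all genes, from 53.1% to 37.1% for palmitate, from 67.1% to 43.5% for IL-1β and from 52.4% to 38.7% for both agents against BSA (control), while the median of all genes moved by less than 0.1. The cause was not tested. No paired analysis was possible because the library numbers run from 1 to 16 and no 2 groups have one in common. Replicate pairs differed by more than counting error in all 24 pairs (chi-square per degree of freedom 2.64 to 18.7). The 2 calls of Degs1, at log2 differences of 0.13 and 0.14, lay near the threshold. Not all differences of about this size did, since Ormdl3 at -0.15 with palmitate passed in 6 of 6 alternatives and in 16 of 16 fits without 1 library. Transcript levels do not measure ceramides or enzyme activity.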
